A study of Homo sapiens with 24 samples.

Results

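H187 is a neuroendocrine small cell lung cancer cell line, and the results concern its transcriptome after exposure to lurbinectedin. They rest on the 6 H187 libraries, all that the study made of this line, out of 24 libraries from 4 lines. Of these, 3 come from H187 cultures given 0.1 nM lurbinectedin for 24 hours and 3 from H187 cultures given the DMSO vehicle for the same 24 hours. The second line used here, H209, is another small cell line that the study's design also places among the ISL1 high lines, with 3 cultures given 0.1 nM lurbinectedin and 3 given DMSO. The lines were grown in RPMI-1640 medium with fetal bovine serum, the triplicates are stated to be biological, and each line is a single established line, so spread between replicates is spread between cultures of that line. Stranded libraries were made from rRNA-depleted total RNA, so nascent and noncoding transcripts were sampled beside mRNA. Read counts assigned to genes totalled 25678767 to 31675679 per H187 library and 24226553 to 30711318 per H209 library. Of the genes tabulated for H187, 14023 passed the filter on low counts and were tested.

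Lurbinectedin binds guanine-rich sequences in the minor groove of DNA and forms adducts there. It is known to stall elongating RNA polymerase II, which is then ubiquitinated and degraded, and the adducts are turned into DNA breaks. Blocked elongation weighs most on genes with long transcription units, and stalled forks and breaks activate checkpoint kinases that hold cells before mitosis. Separately, many drugs switch on the integrated stress response, in which phosphorylated eIF2 raises translation of the transcription factor ATF4 and through it the genes of amino acid supply.

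The libraries carried the markers of the neuroendocrine class. INSM1, a neuroendocrine transcription factor, had between 469 and 526 CPM (read counts scaled to library size) with lurbinectedin and between 542 and 609 CPM with DMSO. SYP, NCAM1 and DLL3 were also detected, while CHGA was not listed in the deposited table. INSM1 and DLL3 were called lower with lurbinectedin, with log2 fold changes of -0.21 and -0.22, and SYP and NCAM1 were not called changed. NEUROD1, which marks 1 of the small cell subtypes, stayed at or below 1.22 CPM and was not called changed. YAP1 stayed at or below 1.84 CPM and was called lower (-0.66) at that low level. POU2F3, the non-neuroendocrine markers VIM, CD44 and REST, the leukocyte markers PTPRC, CD3E and CD14 and the endothelial PECAM1 were not listed, whereas COL1A1 (4.91 to 6.05 CPM), COL1A2 (2.25 to 3.50 CPM) and VWF (7.12 to 8.98 CPM) were low and not called changed.

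Most of the changes in H187 were small. A gene was called where edgeR's quasi-likelihood test gave a Benjamini-Hochberg adjusted p below 0.05, and 12.2% of the 14023 genes were called higher and 12.7% lower. Among the 1708 genes called higher, 822 differed by less than 0.25 on the log2 scale, 648 by 0.25 to 0.5, 214 by 0.5 to 1 and 24 by 1 or more. Among the 1778 called lower the counts in the same ranges were 973, 456, 259 and 90. The smallest changes that were called belonged to genes with many reads: the median level was 51.8 CPM for genes called higher by less than 0.25 and 0.933 CPM for those higher by 1 or more, against 115 and 2.04 CPM for genes called lower. The scaling between libraries (TMM) sets the bulk of genes near 0, so rises and falls are relative to that bulk. A change in total RNA would not show in them. In bulk libraries of this kind, fewer cells in a state and less RNA per cell cannot be told apart.

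**Figure D1:**
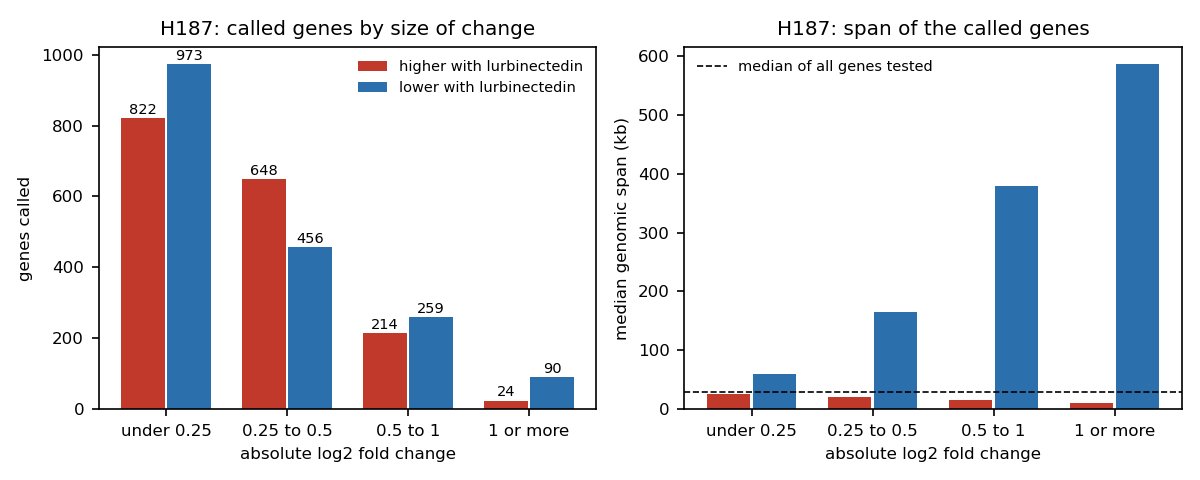
Left, number of H187 genes called higher (red) or lower (blue) with lurbinectedin, by absolute log2 fold change. Right, median genomic span in kilobases of the same genes, with the median of all genes tested (28.2 kb) as a dashed line: the span climbs with the size of the fall to 586 kb and declines with the size of the rise to 11.1 kb.

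Genomic span went with the size of a fall across its whole range, including the mid-size band. The median span was 59.6 kb for falls under 0.25, 166 kb for 0.25 to 0.5, 380 kb for 0.5 to 1 and 586 kb for 1 or more, beside 28.2 kb over all genes tested. Genes spanning at least 100 kb made up 37.5%, 60.3%, 76.1% and 84.4% of these 4 groups, and 18.3% of all genes tested. For rises the order was the other way round, with medians of 26.4, 20.1, 15.0 and 11.1 kb, and none of the 24 genes higher by 1 or more spanned 100 kb. These are descriptions over genes, which are not independent replicates. GC content moved beside span: from the fifth of genes lowest in transcript GC to the fifth highest, the median log2 fold change was -0.03, -0.03, -0.01, 0.02 and 0.07 and the median span 48.8, 43.1, 33.1, 19.3 and 12.7 kb. By chromosome, 17.3% of genes on chromosome 19 (median span 15.7 kb) were called higher and 5.41% lower, whereas on chromosome 5 (median span 41.3 kb) 9.13% were higher and 20.0% lower. The part of span and of GC content in each other's relation to the change was not tested.

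Mid-size genes were named, in both directions, only where the treated and control libraries did not overlap. The 10 mid-size rises with the smallest p-values had log2 fold changes between 0.55 and 0.93. PCK2, the mitochondrial phosphoenolpyruvate carboxykinase (chr14:24094131-24104132), had 35.8, 32.3 and 34.7 CPM with lurbinectedin, against 17.8, 18.0 and 17.9 CPM with DMSO. All 3 treated libraries lay far above the 3 controls, and the log2 fold change was 0.93 ± 0.06 (SE; edgeR's adjusted p = 2.8e-10). PKMYT1, the kinase that holds CDK1 inactive (chr16:2972791-2980539), had 130, 126 and 127 CPM with lurbinectedin, against 76.8, 81.2 and 69.8 CPM with DMSO. Its groups did not overlap either, with a log2 fold change of 0.75 ± 0.05 (edgeR's adjusted p = 7.5e-10). DTL, the substrate receptor that directs CDT1 to degradation after origins fire, had 156, 154 and 154 CPM with lurbinectedin, against 98.5, 97.4 and 104 CPM with DMSO. CDT1 itself rose by a log2 fold change of 0.62 ± 0.04, so an mRNA and that of its degrader rose together. The atypical E2F repressors E2F7 (0.63) and E2F8 (0.62), the exonuclease EXO1 (0.58), the protease FAM111B (0.55) and the thymidine kinase TK1 (0.68) completed this group with the licensing factor CDC6 (0.60). All 10 kept their call when any 1 of the 6 libraries was left out. Their choice by the smallest p-values from the same libraries made that likely. The spans of the 10 lay between 5.48 and 69.5 kb.

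**Figure D2:**
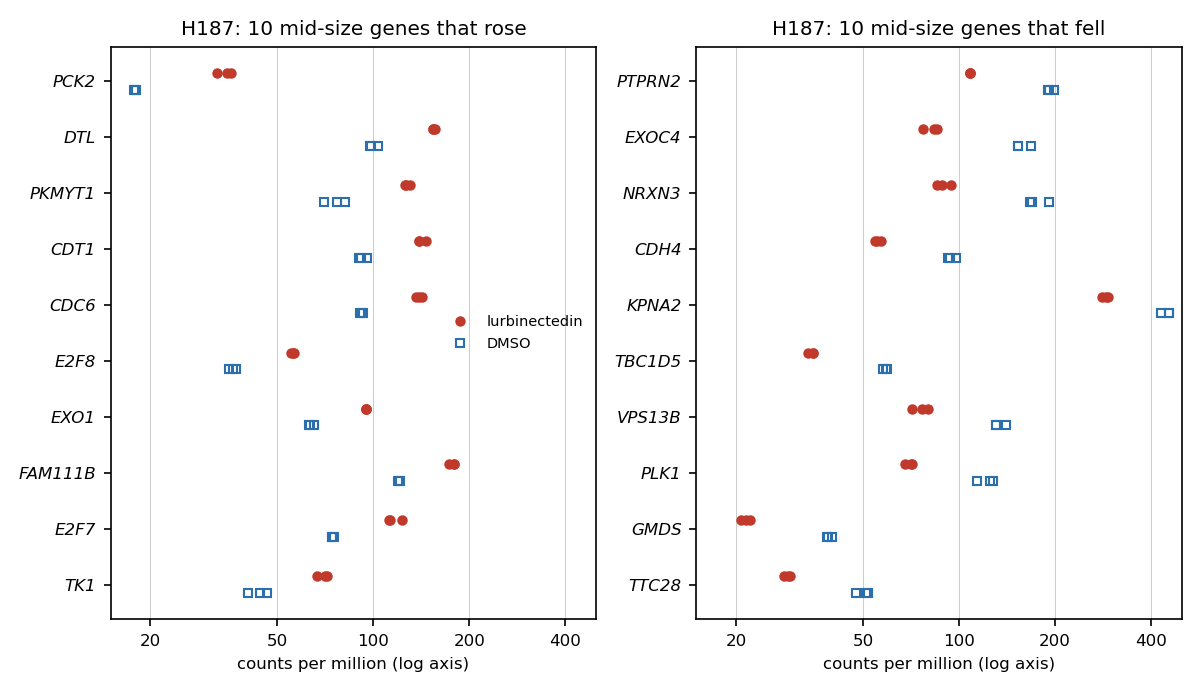
CPM (log axis) in each H187 library for the 10 mid-size genes that rose (left) and the 10 that fell (right) with the smallest p-values; filled red circles are lurbinectedin and open blue squares DMSO, 3 libraries each. The 3 treated libraries lie on one side of the 3 controls in all 20 genes because the choice required it. Of the 14023 genes tested, 5441 met that condition.

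The 10 mid-size falls with the smallest p-values combined 8 very long genes with 2 short genes of mitosis. PTPRN2, a phosphatase-like protein of dense-core secretory granules spanning 1049 kb (chr7:157539052-158587802), had 108, 108 and 109 CPM with lurbinectedin, against 191, 190 and 199 CPM with DMSO. The 3 treated values were almost identical and well below the controls, with a log2 fold change of -0.83 ± 0.04 (edgeR's adjusted p = 5.5e-12). EXOC4, an exocyst subunit, had 77.2, 85.5 and 83.5 CPM with lurbinectedin, against 153, 154 and 168 CPM with DMSO, a log2 fold change of -0.95 ± 0.05. NRXN3, a presynaptic neurexin (-0.98), CDH4, the R-cadherin (-0.77), TBC1D5, a RAB7 regulator (-0.77), VPS13B, a lipid transfer protein of the Golgi (-0.82), GMDS, the first enzyme of GDP-fucose synthesis (-0.87), and TTC28 (-0.79) were the other long genes, and each of the 8 spanned at least 586 kb. KPNA2, an importin alpha with an 11.3 kb gene, had 281, 292 and 290 CPM with lurbinectedin, against 454, 430 and 455 CPM with DMSO. PLK1, the mitotic kinase, spans 11.6 kb and had 71.5, 67.6 and 70.8 CPM with lurbinectedin, against 128, 125 and 114 CPM with DMSO. Their log2 fold changes were -0.63 ± 0.04 and -0.81 ± 0.05. None of the 10 lost its call without any 1 library, which their choice by the smallest p-values again made likely.

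Just behind the 6 largest, rises of at least 2-fold were few. Genes at these ranks, rises and falls alike, were named only where the groups did not overlap. VEGFA, the angiogenic growth factor, had 6.51, 5.84 and 6.10 CPM with lurbinectedin, against 2.26, 2.47 and 2.73 CPM with DMSO. Every treated library exceeded every control by more than a factor of 2, and the log2 fold change was 1.30 ± 0.14 (edgeR's adjusted p = 3.6e-07). GADD45B, a stress-induced regulator of growth arrest (1.11 ± 0.17), BEST1, a chloride channel (1.09 ± 0.16), TSPAN2, a tetraspanin (1.06 ± 0.19), and GPX8, a peroxidase of the endoplasmic reticulum (1.06 ± 0.14), were the others among genes with a mean of 2 CPM or more. TSPAN2 and GPX8 had 2.62 to 2.87 and 4.84 to 6.29 CPM with lurbinectedin, against 1.18 to 1.56 and 2.63 to 2.87 CPM with DMSO. The 8 falls at the same ranks lay between -1.66 and -1.49. GPC6, a glypican proteoglycan spanning 1181 kb (chr13:93226808-94408019), had 16.4, 16.3 and 14.2 CPM with lurbinectedin, against 47.2, 47.8 and 53 CPM with DMSO. Treated libraries lay far below the controls with no overlap, and the log2 fold change was -1.66 ± 0.06 (edgeR's adjusted p = 1.9e-13). AKAP6, a kinase anchor, NEGR1, IL1RAPL1 and GRIP1, which act in neuronal adhesion and at synapses, MCTP1, a calcium-binding membrane protein, RBFOX1, a neuronal splicing regulator, and LUZP2 fell by 1.49 to 1.63 on the log2 scale. None of these 13 genes lost its call without any 1 library.

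At the other end of the range, genes with the most reads changed by small amounts. RRM2, the regulated subunit of ribonucleotide reductase, had 981, 1008 and 1027 CPM with lurbinectedin, against 716, 700 and 722 CPM with DMSO, a log2 fold change of 0.50 ± 0.03. MCM7 (0.26) and MCM4 (0.33), subunits of the replicative helicase, rose as well, and KPNB1, the nuclear import receptor (0.12), lost its call without lurbinectedin library 3 (edgeR's adjusted p = 0.11). PEG10, a retrotransposon-derived gene, differed by 0.10 and HIST2H2BE by 0.12, and these calls were lost without any of 5 and any of 4 libraries, with edgeR's adjusted p of up to 0.14 and 0.11. TUBA1A, the neuronal alpha-tubulin, had 4540, 4684 and 4698 CPM with lurbinectedin, against 6047, 5403 and 5553 CPM with DMSO. All treated libraries were below all controls, with a log2 fold change of -0.29 ± 0.04. HSPA8, the constitutive HSP70 chaperone (-0.32), EIF4G2, a translation initiation factor (-0.20), and YWHAZ, a 14-3-3 protein (-0.16), also fell. TUBA1B (-0.13) lost its call without lurbinectedin library 1 (edgeR's adjusted p = 0.066), and EEF1A1 (-0.11) lost it without any of 4 libraries (up to 0.22) and with a correction for GC content (0.058). Alpha-tubulin, elongation factor and histone genes have near-identical copies, so their counts are uncertain.

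Genes of the ATF4 axis rose together. Of 20 measured ATF4 axis regulators and targets, 15 were called higher and none lower, with a median log2 fold change of 0.48 beside 0.00 over all genes tested. Counts of list members, here and below, stand beside 12.2% called higher and 12.7% called lower over all genes tested. SESN2, an inhibitor of mTORC1 signalling, had 15.5, 14.0 and 15.1 CPM with lurbinectedin, against 8.08, 8.23 and 6.64 CPM with DMSO. The treated libraries stood well above the controls at a log2 fold change of 0.96 ± 0.09 (edgeR's adjusted p = 1.2e-07). DDIT4, another mTORC1 inhibitor (0.78), STC2, a secreted glycoprotein (0.81), TRIB3, a pseudokinase that restrains ATF4 (0.73), and ASNS, asparagine synthetase (0.73), rose too. ATF4 mRNA itself was at 244, 220 and 247 CPM with lurbinectedin and 248, 246 and 207 CPM with DMSO, with overlapping groups and edgeR's adjusted p = 0.85. Among 15 serine and folate enzymes 10 were called higher and 1 lower (median 0.25), including SHMT2 at 0.41 and PSAT1 at 0.50, which make glycine and serine. Of 14 amino acid transporters 8 were called higher and 2 lower (median 0.24), with none lower without lurbinectedin library 3. SLC3A2, the shared heavy chain of the heteromeric transporters, had 121, 125 and 126 CPM with lurbinectedin, against 81.3, 86.2 and 85.0 CPM with DMSO. Its partner light chains SLC7A5 (0.57) and SLC7A11 (0.58) and the glycine transporter SLC6A9 (0.76) rose by similar amounts. Cytosolic tRNA synthetases took part only in places: 6 of 19 were called higher and none lower (median 0.07), led by TARS at 0.36, SARS at 0.31 and AARS at 0.29, while EPRS, LARS, KARS and RARS lay between -0.03 and 0.01. That count ranged between 4 and 7 when 1 library was left out, with the lowest without lurbinectedin library 3. Of 16 mitochondrial tRNA synthetases none was called higher and 4 lower.

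Promoters of CHAC1, which had the largest rise of the list, and of ASNS, a member that also rose, are shown because ATF4 binds the letters TGATGNAA in partnership with C/EBP proteins. The windows are RefSeq sequence of GRCh38.p14, from 250 bases before to 50 after a transcription start, with matches on either strand in capitals. The CHAC1 window is chr15:40953221-40953520 (plus strand), and CHAC1, a glutathione-degrading enzyme, carries 1 match on the reverse strand upstream of the start. The ASNS window is chr7:97872359-97872658 (minus strand), the first listed of 2 starts, with 1 match 68 bases before the start.
CHAC1: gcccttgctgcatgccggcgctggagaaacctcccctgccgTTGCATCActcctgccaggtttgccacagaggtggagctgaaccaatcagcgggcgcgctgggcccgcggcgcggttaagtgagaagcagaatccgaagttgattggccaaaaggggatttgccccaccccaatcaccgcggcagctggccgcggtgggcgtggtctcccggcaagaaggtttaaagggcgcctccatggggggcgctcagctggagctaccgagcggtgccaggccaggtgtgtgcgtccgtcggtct
ASNS: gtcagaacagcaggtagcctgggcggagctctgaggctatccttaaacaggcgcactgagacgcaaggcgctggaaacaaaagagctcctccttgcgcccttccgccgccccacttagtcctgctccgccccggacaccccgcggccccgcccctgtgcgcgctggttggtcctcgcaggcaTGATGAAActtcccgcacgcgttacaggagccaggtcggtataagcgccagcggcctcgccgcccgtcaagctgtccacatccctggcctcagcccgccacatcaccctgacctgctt
These letters were found in 3.62% of all 35116 windows of the table and in 1.51% of the first windows of the 10985 tested H187 genes that have one. They were found in 3 of 19 windows of ATF4 axis genes, 3 of 12 of amino acid transporters and 5 of 12 of cytosolic tRNA synthetases. A match is a description of the letters and shows no binding, and each list's windows were searched for that list's letters only.

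DNA replication genes rose almost as a block and by modest amounts. Of 28 origin licensing and firing genes 23 were called higher and 1 lower (median 0.24), and of 34 replisome and fork genes 25 were called higher and none lower (median 0.23). GINS4, a subunit of the CMG helicase, had 37.5, 34.2 and 35.1 CPM with lurbinectedin, against 21.9, 20.7 and 21.1 CPM with DMSO. Every treated library was well above every control, and the log2 fold change of 0.74 ± 0.06 was the largest of the licensing list (edgeR's adjusted p = 4.6e-09). DBF4, the activator of the CDC7 kinase, was the exception, with 97.5, 100 and 104 CPM with lurbinectedin, against 125, 119 and 123 CPM with DMSO (-0.28 ± 0.04). CLSPN, the fork protein that carries the checkpoint signal to CHEK1 (0.51), LIG1, the ligase of Okazaki fragments (0.43), and RFC2, a clamp loader subunit (0.40), led the replisome list. Of 22 E2F and G1/S cyclin genes 13 were called higher and 3 lower (median 0.19). CCNE1, the cyclin that starts S phase, had 27.6, 27.2 and 26.6 CPM with lurbinectedin, against 18.9, 18.7 and 17.9 CPM with DMSO, a log2 fold change of 0.55 ± 0.06. CCNA2, the cyclin of late S and G2 phase, went the other way, with 88.3, 89.5 and 89.1 CPM with lurbinectedin, against 117, 114 and 116 CPM with DMSO (-0.38 ± 0.04). Enzymes of DNA precursors (8 of 14 higher, none lower, median 0.18) and histone chaperones (8 of 18 higher, 1 lower, median 0.10) completed this set, with CHAF1B and ASF1B, which load new histones behind the fork, both at 0.58.

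Promoters of 2 replication genes are shown with the letters of the E2F site, searched as TTTGGCGC, TTTCCCGC, TTTGCCGC and TTTCGCGC on both strands. The CDC6 window is chr17:40287629-40287928 (plus strand), with 1 match 7 bases after the start. The DTL window is chr1:212035498-212035797 (plus strand), with 1 match 8 bases before the start.
CDC6: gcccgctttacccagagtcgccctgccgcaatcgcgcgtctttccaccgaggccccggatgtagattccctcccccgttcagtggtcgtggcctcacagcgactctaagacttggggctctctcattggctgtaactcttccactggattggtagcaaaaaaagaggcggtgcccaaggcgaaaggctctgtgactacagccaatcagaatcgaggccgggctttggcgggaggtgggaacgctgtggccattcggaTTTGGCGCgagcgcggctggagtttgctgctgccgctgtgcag
DTL: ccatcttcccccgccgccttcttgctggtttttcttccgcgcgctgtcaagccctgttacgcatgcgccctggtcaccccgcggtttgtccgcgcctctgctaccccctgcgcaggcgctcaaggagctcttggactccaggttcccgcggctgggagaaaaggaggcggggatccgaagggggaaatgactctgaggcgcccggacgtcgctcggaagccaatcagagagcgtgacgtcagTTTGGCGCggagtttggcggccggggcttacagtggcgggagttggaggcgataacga
Such letters stood in 3.31% of all windows and in 5.43% of those of the tested H187 genes, and in 11 of 22 windows of licensing genes and 11 of 28 of replisome genes.

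Genes of mitosis fell, with a division inside the program. Of 31 mitotic kinesins and spindle genes 23 were called lower and 1 higher (median -0.17), and of 24 mitotic kinases, cyclins and phosphatases 13 were called lower and 4 higher (median -0.14). CCNB1, the mitotic cyclin, had 210, 204 and 222 CPM with lurbinectedin, against 381, 346 and 315 CPM with DMSO. The treated libraries were all below the controls, which spread more widely, and the log2 fold change was -0.71 ± 0.05 (edgeR's adjusted p = 2e-09). AURKA, the centrosomal kinase (-0.58), CENPE, a kinetochore motor (-0.55), KIF20A, a kinesin of cytokinesis (-0.62), and the APC/C activator CDC20 (-0.48) fell by similar amounts. The 4 rises among the kinases and their partners included PKMYT1 and MYBL2, a factor that activates the mitotic genes (0.26). Centromere and kinetochore genes were divided, with 8 of 39 called higher, among them CENPU at 0.35 and DSN1 at 0.32, and 12 lower (median -0.04). Of 18 genes of the anaphase-promoting complex and its partners 5 were called lower and 1 higher.

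The promoters of PLK1 and KPNA2, a pair of short genes in the mid-size falls, are shown with the CHR element TTTGAA, through which the DREAM complex is known to hold mitotic genes down outside G2 and M phase. The PLK1 window is chr16:23678639-23678938 (plus strand), with 1 match 29 bases before the start. The KPNA2 window is chr17:68035485-68035784 (plus strand), with a match on the reverse strand 99 bases before the start and another 32 bases after it.
PLK1: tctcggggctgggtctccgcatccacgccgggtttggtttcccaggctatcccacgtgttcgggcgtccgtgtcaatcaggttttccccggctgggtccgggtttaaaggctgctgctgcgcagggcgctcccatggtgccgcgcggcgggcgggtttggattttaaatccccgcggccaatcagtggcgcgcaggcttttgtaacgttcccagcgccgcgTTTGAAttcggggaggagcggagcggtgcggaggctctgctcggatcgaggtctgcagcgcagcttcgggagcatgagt
KPNA2: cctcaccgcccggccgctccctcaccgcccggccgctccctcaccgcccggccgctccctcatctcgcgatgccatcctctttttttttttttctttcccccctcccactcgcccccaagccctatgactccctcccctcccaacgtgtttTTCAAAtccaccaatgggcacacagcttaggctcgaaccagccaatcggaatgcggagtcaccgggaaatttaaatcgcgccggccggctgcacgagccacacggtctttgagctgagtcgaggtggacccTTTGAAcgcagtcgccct
This short element was common, in 15.2% of all windows and 9.80% of those of tested H187 genes, and stood in 21 of 29 windows of kinesin and spindle genes and 9 of 17 of mitotic kinases and partners.

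DNA repair genes rose in part. Of 33 homologous recombination genes 16 were called higher and 1 lower (median 0.18). RAD51B, with a gene of 863 kb, was the member that fell, with 5.14, 5.78 and 4.41 CPM with lurbinectedin, against 9.11, 10.1 and 10.9 CPM with DMSO (-0.97 ± 0.11, edgeR's adjusted p = 1.7e-06). XRCC4, an end-joining factor spanning 276 kb, fell as well (-0.56 ± 0.10). Nucleotide excision repair, the pathway that acts on bulky adducts, had 3 of 25 genes called higher and 4 lower (median -0.01), close to the shares over all genes, and between 1 and 3 in either direction when 1 library was left out. DDB2, the damage-binding subunit that is also a p53 target, rose by 0.43. Checkpoint genes had 11 of 21 called higher and 1 lower (median 0.14), and 7 higher without lurbinectedin library 1. Of 24 p53 target genes 10 were called higher and 3 lower (median 0.17). Its members went both ways: BBC3, a BH3-only death factor (0.90), SESN2 and PMAIP1 (0.26) rose, while MDM2, the p53 ubiquitin ligase, had 454, 486 and 455 CPM with lurbinectedin, against 501, 520 and 549 CPM with DMSO (-0.17 ± 0.04, edgeR's adjusted p = 0.0029). In the BCL2 family 6 of 15 were called higher and 2 lower, with 3 higher without lurbinectedin library 1, and HRK, a BH3-only gene of neurons, rose by 0.63. Some lists share members, such as BBC3 in the p53 and BCL2 lists and CLSPN in the replisome and checkpoint lists. Counts of different lists are therefore not independent.

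A small group of genes that sense foreign or misplaced nucleic acid also rose. Of 19 such genes 7 were called higher and none lower (median 0.18), and 4 higher without lurbinectedin library 1. OAS3, which makes the 2-5A activator of RNase L, had 26.4, 25.3 and 25.1 CPM with lurbinectedin, against 15.0, 14.3 and 15.0 CPM with DMSO. The groups were far apart at a log2 fold change of 0.79 ± 0.06 (edgeR's adjusted p = 7.2e-09). IFIH1, the cytosolic sensor of long double-stranded RNA (0.60 ± 0.13), IFIT5 (0.38 ± 0.10) and EIF2AK2, the kinase PKR (0.18 ± 0.04), rose in every comparison with 1 library left out. Among NF-kB feedback genes 9 of 15 were called higher and none lower (median 0.24), with TNFAIP3, the A20 ubiquitin-editing enzyme, at 3.69, 3.78 and 3.45 CPM with lurbinectedin, against 1.55, 1.41 and 1.14 CPM with DMSO (1.41 ± 0.18). IRF1, an interferon regulatory factor, rose by 0.55 ± 0.08, and BIRC3, an inhibitor of apoptosis, had 1.25 and lost its call without lurbinectedin library 2 (edgeR's adjusted p = 0.078). Immediate early and MAPK feedback genes were mixed, with 9 of 29 called higher and 1 lower (median 0.21): EGR1 (0.69), JUN (0.49) and KLF10 (0.50) rose, SPRY1, an inhibitor of receptor signalling, fell (-0.50), and FOS was at 8.90, 8.24 and 8.30 CPM with lurbinectedin and 9.64, 9.53 and 9.65 CPM with DMSO (edgeR's adjusted p = 0.15).

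The OAS3 window, chr12:112938224-112938523 (plus strand), is shown because OAS3 led the sensing genes. The letters searched on both strands were GAAA, any 2 bases and GAAA again, the core that interferon regulatory factors bind, and there were 2 matches, 143 and 12 bases before the start.
OAS3: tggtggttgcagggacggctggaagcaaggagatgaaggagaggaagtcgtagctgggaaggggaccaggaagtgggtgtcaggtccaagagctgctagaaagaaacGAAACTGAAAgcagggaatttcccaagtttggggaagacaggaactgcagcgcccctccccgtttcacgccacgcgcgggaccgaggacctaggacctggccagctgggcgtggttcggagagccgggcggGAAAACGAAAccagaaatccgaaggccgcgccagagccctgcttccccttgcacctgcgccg
They stood in 3.57% of all windows, 2.46% of those of tested H187 genes and 6 of 14 windows of the sensing genes.

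Genes of neuronal surfaces fell more often than they rose, with exceptions among the short ones. Over all genes tested 12.2% were called higher and 12.7% lower. Of 43 cell adhesion genes of neurons 28 were called lower and 4 higher (2 higher without lurbinectedin library 1), with a median of -0.58 and a median span of 588 kb. TENM4, a teneurin spanning 787 kb, had 22.9, 23.4 and 22.8 CPM with lurbinectedin, against 53.1, 59.8 and 65.5 CPM with DMSO. The treated libraries agreed closely and lay below the spread of the controls, at a log2 fold change of -1.37 ± 0.06 (edgeR's adjusted p = 2.8e-12). NLGN1, a postsynaptic neuroligin spanning 885 kb, fell by 1.91 on the log2 scale. Its short relative NLGN2 (11.7 kb) had 30.6, 31.6 and 33.3 CPM with lurbinectedin, against 25.2, 25.8 and 21.9 CPM with DMSO, a log2 fold change of 0.39 ± 0.06 (edgeR's adjusted p = 9.9e-05). CNTNAP1 (17.4 kb), a contactin partner, rose as well (0.76 ± 0.10). Of 26 neurotransmitter receptor genes 10 were called lower and 2 higher (median -0.20): GRID1, a delta glutamate receptor of 767 kb, fell by 1.19, and CHRNA5, a nicotinic subunit of 29.8 kb, rose by 0.32. Of 30 potassium channel genes 10 were called lower and 2 higher (median -0.06), and KCNC1 (0.45) and KCNA3 (0.72), the 2 that rose, span 47.1 and 21.5 kb. Calcium and sodium channels had 8 of 21 called lower and 3 higher, with 5 lower without DMSO library 2 and 1 higher without DMSO library 3. Of 42 axon guidance genes 14 were called lower and 9 higher (5 higher without lurbinectedin library 1), PLXNA4 (-0.89) and ROBO2 (-0.63) against UNC5B (0.39) and EFNA3 (0.38). For axon guidance both counts lay above the shares over all genes. Cadherins and protocadherins had 11 of 24 called lower and 1 higher, the 25.3 kb PCDH1 (0.21). Of 24 receptor tyrosine kinases 2 were called higher and 5 lower: ERBB3, a neuregulin receptor of 23.5 kb, rose by 0.59 ± 0.08 and ALK, a receptor kinase of 729 kb, fell by 1.26 ± 0.25. Of 24 lineage transcription factors 10 were called lower and 1 higher, with NFIA at -0.50 and EBF1 at -0.32 the largest falls that kept their call without any 1 library.

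Several housekeeping sets stayed near the share of all genes. RNA polymerase II subunits (1 higher and 1 lower of 12), elongation factors (4 and 3 of 31), Mediator subunits (2 and 4 of 32) and splicing factors (4 and 3 of 40) had medians between -0.03 and 0.03, and counts between 0 and 5 when 1 library was left out. HEXIM1, the inhibitor of P-TEFb, was among the elongation factors that rose (0.36). Mitochondrial energy genes leaned lower: 10 of 36 complex I subunits were called lower and 1 higher (median -0.08; 4 lower without lurbinectedin library 1), and 6 of 15 ATP synthase subunits were called lower and none higher (median -0.12). Proteasome subunits had 4 of 30 called lower, near the share over all genes, and none higher (median -0.08). Without lurbinectedin library 1, 1 was lower. Cholesterol synthesis genes stayed near the shares over all genes (12.2% higher and 12.7% lower) in both directions. Of 24, 3 were higher, among them ACAT2 (0.21), and 4 lower, among them MSMO1 (-0.23), both enzymes of the pathway. Without lurbinectedin library 1, 2 were lower.

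**Figure D3:**
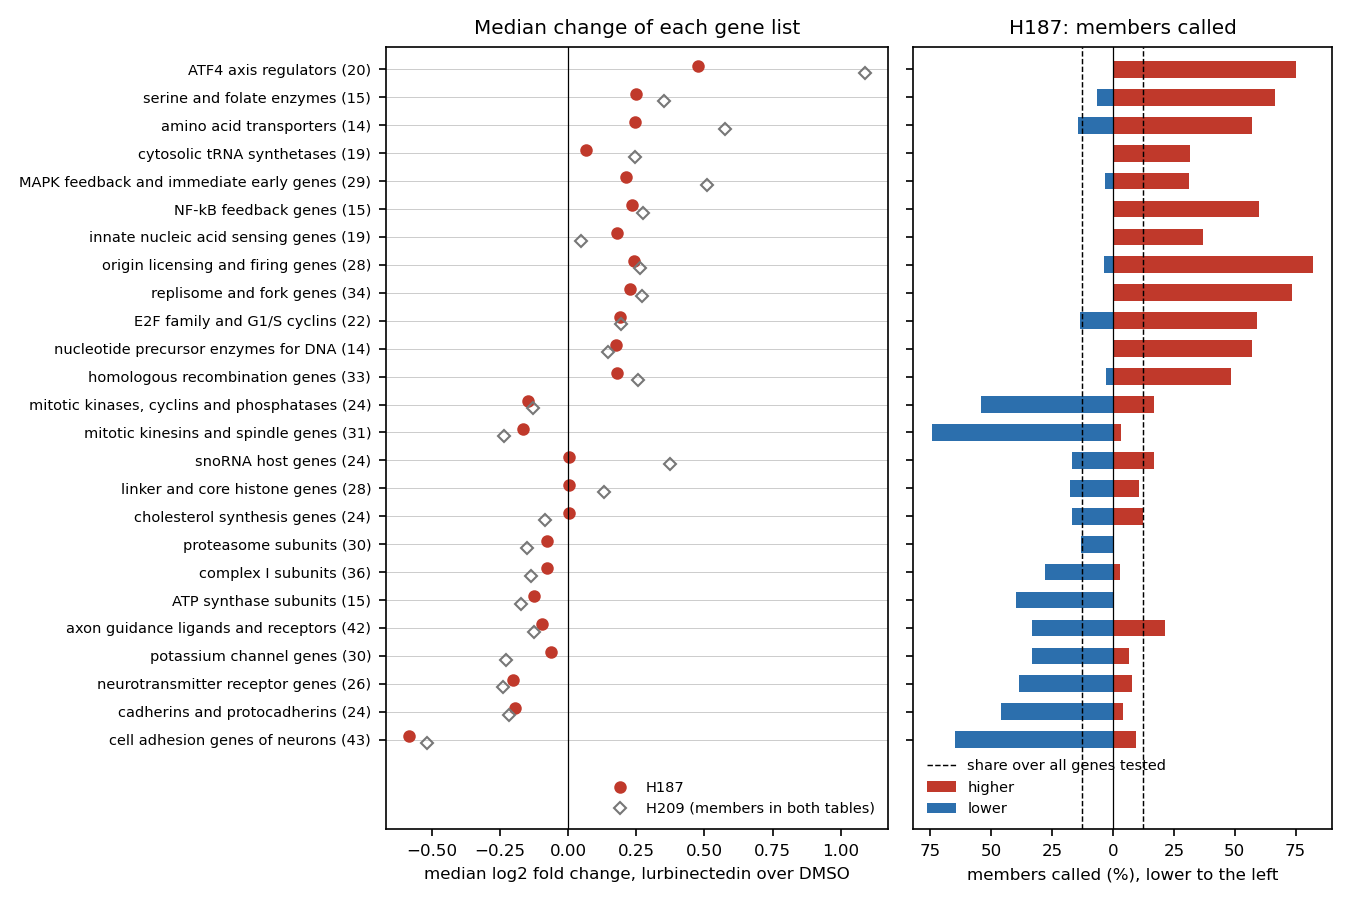
Left, median log2 fold change (lurbinectedin over DMSO) of the measured members of 25 gene lists in H187 (filled red circles) and in H209 (open diamonds); the number measured in H187 is in parentheses. Right, percent of members called higher (red, to the right) or lower (blue, to the left) in H187, with the shares over all genes tested (12.2% and 12.7%) as dashed lines: licensing, replisome and ATF4 genes stand out to the right, and spindle and neuronal adhesion genes to the left.

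Noncoding genes had more falls than rises. Of 1514 noncoding genes 42 (2.77%) were called higher and 105 (6.94%) lower, beside 13.3% and 13.4% of 12467 protein-coding genes. Their median level was 1.95 CPM, against 34.2 CPM for protein-coding genes, so fewer reads were behind each value. Among genes at 1 to 4 CPM, 7 of 379 lncRNAs were called higher and 17 lower, and 84 of 1285 protein-coding genes were called higher and 87 lower. Of the lncRNAs of at least 100 kb, none of 103 was called higher and 23 (22.3%) lower, with a median of -0.21, beside 36.9% lower and a median of -0.12 for 2380 protein-coding genes of that span. By kind, 22 of 931 lncRNAs were called higher and 77 lower, 20 of 369 transcribed pseudogenes were called higher and 15 lower, and of 126 snoRNAs none was called higher and 7 lower (median -0.18). Of 37 microRNA hairpins 2 were called lower. Small RNAs are poorly captured in this kind of library, and a hairpin or snoRNA within a host transcript can carry its reads, so these rows are not mature RNA levels. Antisense and overlapping genes are likewise uncertain, since the strand setting of the counting is not given in the sources used here.

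**Figure D4:**
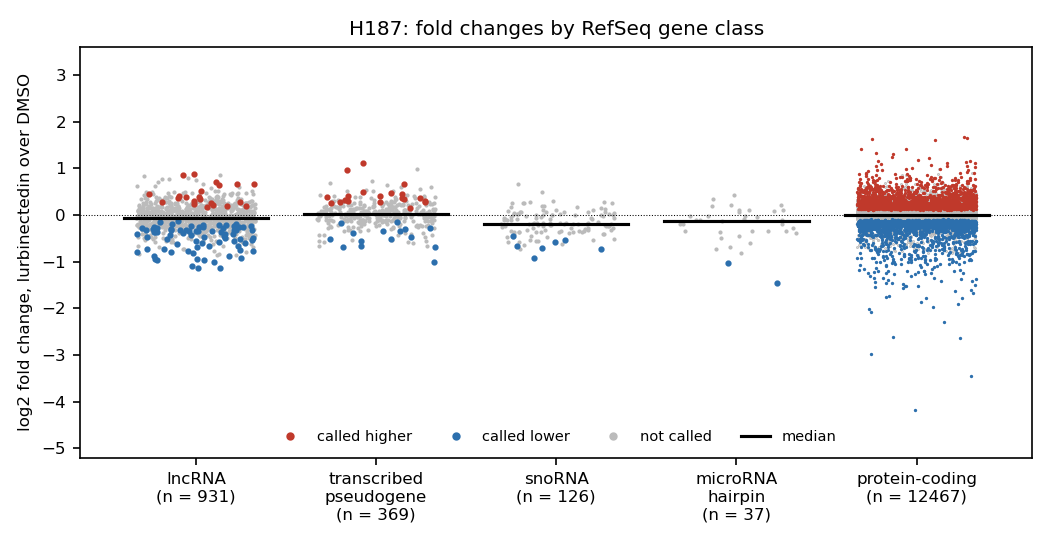
Log2 fold change (lurbinectedin over DMSO) in H187 for each gene of 5 RefSeq classes, with genes called higher in red, genes called lower in blue, genes not called in grey and the class median as a black bar. lncRNAs, snoRNAs and microRNA hairpins have medians below 0 (-0.07, -0.18 and -0.13), and transcribed pseudogenes and protein-coding genes lie close to 0.

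Several noncoding changes with more reads behind them held without any 1 library. SFTA3, a lncRNA locus beside NKX2-1 on chromosome 14 (chr14:36473289-36519521), had 174, 179 and 171 CPM with lurbinectedin, against 213, 216 and 228 CPM with DMSO. Its groups were well apart, with a log2 fold change of -0.32 ± 0.04 (edgeR's adjusted p = 4e-06). NKX2-1-AS1 (-0.29 ± 0.06) and NKX2-1 itself, the lung lineage factor (-0.23 ± 0.04), fell in the same region. LINC00641 (-0.34), MIR646HG (-0.43), MIR100HG (-0.33), MIR600HG (-0.33), DLX6-AS1 (-0.42), DLEU1 (-0.32), MSC-AS1 (-0.26) and the abundant TUG1 (-0.17) also fell. NORAD, a cytoplasmic lncRNA that binds Pumilio proteins, differed by -0.13 ± 0.03 and lost its call without lurbinectedin library 3 (edgeR's adjusted p = 0.056). The clearest rise was LOC646762, with 46.7, 40.6 and 42.1 CPM with lurbinectedin, against 32.7, 35.2 and 30.0 CPM with DMSO (0.40 ± 0.06). The snoRNA hosts SNHG1 (0.36 ± 0.07) and ZFAS1 (0.26 ± 0.05) and HAGLR, a lncRNA of the HOXD cluster (0.24 ± 0.06), rose too, and SNORD3A, the U3 snoRNA of rRNA processing, fell to 51.4, 61.8 and 54.2 CPM with lurbinectedin, against 75.2, 68.6 and 84.2 CPM with DMSO (-0.45 ± 0.07). U3 has several gene copies, so which copy the reads came from is uncertain.

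The largest noncoding fold changes above 1 CPM, among genes whose groups did not overlap, were less secure. Of the 8 largest rises, FAM86FP (0.97), CBR3-AS1 (0.87), CEBPB-AS1 (0.70), FAM86B3P (0.67), HMGN3-AS1 (0.67), LINC00623 (0.66), FLVCR1-AS1 (0.63) and EP300-AS1 (0.52), each lost its call without any of 2 to 5 libraries, with edgeR's adjusted p of up to 0.078 to 0.19. The calls of CEBPB-AS1, FAM86B3P, HMGN3-AS1 and FLVCR1-AS1 were also lost with DESeq2 (adjusted p of 0.054 to 0.10). CBR3-AS1 lost it without DMSO library 2 or lurbinectedin library 3, and EP300-AS1 without DMSO library 1 or lurbinectedin library 3. The FAM86 rows are members of a duplicated family, and CEBPB-AS1 overlaps the ATF4-axis gene CEBPB, itself at 0.53. Among the falls, LOC728613, a transcribed pseudogene, had 2.06, 1.72 and 1.5 CPM with lurbinectedin, against 3.53, 3.61 and 3.35 CPM with DMSO. Each treated library was below each control, and the log2 fold change of -1.0 ± 0.17 held without any 1 library (edgeR's adjusted p of up to 0.0021). SNAP25-AS1 (-0.93) held as well (up to 0.047). DLEU7-AS1 (-0.82), LINC01266 (-0.80), LINC02542 (-0.76), SNORD46 (-0.73), COLCA1 (-0.72) and SNORD102 (-0.71) lost their calls without any of 1 to 4 libraries (edgeR's adjusted p of up to 0.064 to 0.17), LINC02542 only without lurbinectedin library 2. With DESeq2 the calls of SNORD46, COLCA1 and SNORD102 were lost too (adjusted p of 0.058, 0.058 and 0.089).

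At the imprinted SNHG14 locus of chromosome 15, the host transcript and several rows within it were lower. SNHG14 (chr15:24823608-25419461), the long host of the SNORD115 and SNORD116 snoRNAs, had 92.2, 90.2 and 91.5 CPM with lurbinectedin, against 102, 108 and 109 CPM with DMSO (-0.22 ± 0.04, edgeR's adjusted p = 0.0011). PWAR5 (-0.26 ± 0.07) and UBE3A, the ubiquitin ligase that the same transcript runs antisense to (-0.15 ± 0.04), were also called, PWAR5 not with DESeq2 (adjusted p = 0.090). IPW (-0.20), PWARSN (-0.21) and SNORD116-26 (-0.93) were called but each lost its call without any of 4 libraries (edgeR's adjusted p of up to 0.093, 0.22 and 0.091). PWARSN, whose groups overlapped, and SNORD116-26 also lost their calls with DESeq2 (adjusted p of 0.053 and 0.072). SNRPN, which lies within SNHG14, was not called (-0.38, edgeR's adjusted p = 0.21). These transcripts overlap and are not independent.

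Rows of ribosomal RNA did not give a usable comparison. RNA45SN2, a 45S precursor copy, had 126, 30.7 and 7.98 CPM with lurbinectedin and 55.6, 150 and 231 CPM with DMSO, so the groups overlapped. Its call (log2 fold change -1.43 ± 0.51, edgeR's adjusted p = 0.044) was lost without any of 4 libraries (up to 0.16), with a correction for GC content (0.052) and with DESeq2 (0.41). Its copies are near identical and the libraries were depleted of rRNA. All rRNA rows together took 0.156% to 0.234% of counts with lurbinectedin and 0.178% to 0.369% with DMSO. MIR663A (-1.45), TALAM1 (-1.79) and MIR130B (-1.04), which were chosen after their values were seen, had at most 1.38, 5.60 and 0.899 CPM in any H187 library and lost their calls without any of 4, 3 and 4 libraries (edgeR's adjusted p of up to 0.15, 0.70 and 0.17).

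The comparison with H209 asks which changes belonged to H187 among 2 lines of the same class at the same dose. Changes of H187 alone are those not called in H209, with the difference between the responses called. The responses of the other lines were not examined. H209 gave more calls, 22.7% of 14421 genes higher and 22.5% lower. Of the 1663 H187 rises present in both tables, 1139 (68.5%) were also called higher in H209, where they made up 37.3% of its rises among genes in both tables. Of 1638 falls 1248 (76.2%) were also called lower, 40.5% of the H209 falls among those genes. A further 499 rises and 339 falls were not called in H209, but a missing call does not show a difference, so the difference between the responses was tested for 13042 genes. It was called for 10.4% of them, with the H187 change higher for 4.42% and lower for 5.93%. Of the 499 and 339 genes, 97 (0.744% of the genes tested) and 66 (0.506%) passed that test as well. These counts were sensitive to single libraries: the 97 became 56 without lurbinectedin library 1 of H187 and 50 without its lurbinectedin library 3, and the 66 became 42 without DMSO library 2 of H209. The changes were small, with a median absolute log2 fold change of 0.25 for the 97 rises and 0.23 for the 66 falls. Median spans were 26.9 and 77 kb, and 5 of the 97 rises and 30 of the 66 falls spanned at least 100 kb.

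NR1D1, the nuclear receptor REV-ERB alpha of the circadian clock (chr17:40092784-40100725), was among the rises of H187 alone. It had 16.0, 18.1 and 16.2 CPM in H187 with lurbinectedin, against 8.68, 8.70 and 10.0 CPM with DMSO, and 3.03, 3.69 and 2.73 CPM in H209 with lurbinectedin, against 3.41, 2.80 and 3.21 CPM with DMSO. The H187 groups were far apart (0.87 ± 0.09), the H209 groups overlapped (0.00), and the difference of the responses was 0.87 ± 0.17 (edgeR's adjusted p = 0.00077). TSPAN2 had 2.78, 2.87 and 2.62 CPM in H187 with lurbinectedin, against 1.2, 1.18 and 1.56 CPM with DMSO, while H209 lay between 6.76 and 7.85 CPM in both groups. SHOX2, a homeobox factor (0.55 in H187 and -0.05 in H209), and C1orf216 (0.53 and 0.06) likewise kept both the H187 call and the call of the difference without any 1 library. P3H4, a collagen modifier (0.58), kept its H187 call, and its difference lost the call without lurbinectedin library 3 of H187 (edgeR's adjusted p = 0.053). GCNT1 (0.54), DNAJA4 (0.50) and ANXA5 (0.49), with 1.45 to 5.53 CPM in H187, lost their H187 calls without any of 4, 6 and 3 libraries (edgeR's adjusted p of up to 0.15, 0.14 and 0.083), and the calls of GCNT1 and DNAJA4 were lost with DESeq2 (adjusted p of 0.071 and 0.12).

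Falls of H187 alone were led by long genes. MAGI2, a synaptic scaffold spanning 1437 kb (chr7:78017057-79453574), had 14.8, 15.8 and 14.3 CPM in H187 with lurbinectedin, against 30.2, 27.7 and 28.7 CPM with DMSO, and 2.67, 2.50 and 2.36 CPM in H209 with lurbinectedin, against 2.93, 2.28 and 2.99 CPM with DMSO. The H187 groups were separate (-0.95 ± 0.06) and the H209 groups overlapped at a much lower level (-0.11), with a difference of -0.84 ± 0.16 (edgeR's adjusted p = 0.00051). NAV2, a neuron navigator spanning 771 kb, had 152, 160 and 154 CPM in H187 with lurbinectedin, against 215, 239 and 241 CPM with DMSO, and a difference of -0.50 ± 0.06 against H209 (-0.57 in H187 and -0.09 in H209). ZBTB20, a transcriptional repressor spanning 833 kb, was well expressed in both lines: 43.1, 49.3 and 43.0 CPM in H187 with lurbinectedin, against 61.5, 65.2 and 80.1 CPM with DMSO, and 139, 151 and 128 CPM in H209 with lurbinectedin, against 120, 142 and 158 CPM with DMSO. It fell in H187 (-0.61 ± 0.07), its H209 groups overlapped (-0.01), and the difference was -0.61 ± 0.11 (edgeR's adjusted p = 0.00031). MGAT4C, a glycosyltransferase (-1.18), ELMO1, an activator of Rac signalling (-0.69), and ARHGAP26, a GTPase-activating protein (-0.49), followed and kept both calls without any 1 library. LINC00643 (-0.56) kept its H187 call, but its difference was lost without any of 9 of the 12 libraries (edgeR's adjusted p of up to 0.24), and BMS1P4 (-0.46), a pseudogene of a duplicated family, lost its H187 call without any of 5 libraries (up to 0.069) and with DESeq2 (0.056). Outside this selection TENM2, a teneurin spanning 979 kb, had 0.304, 0.406 and 0.128 CPM in H187 with lurbinectedin, against 0.988, 1.18 and 0.933 CPM with DMSO (-1.87 ± 0.34), beside 0.12 in H209 and a difference of -1.99 ± 0.37 (edgeR's adjusted p = 0.00033). With a minimum count of 10, TENM2 entered the H187 test through its higher DMSO libraries. Few reads lie behind its treated values, so the size of its fall and of the difference is uncertain.

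**Figure D5:**
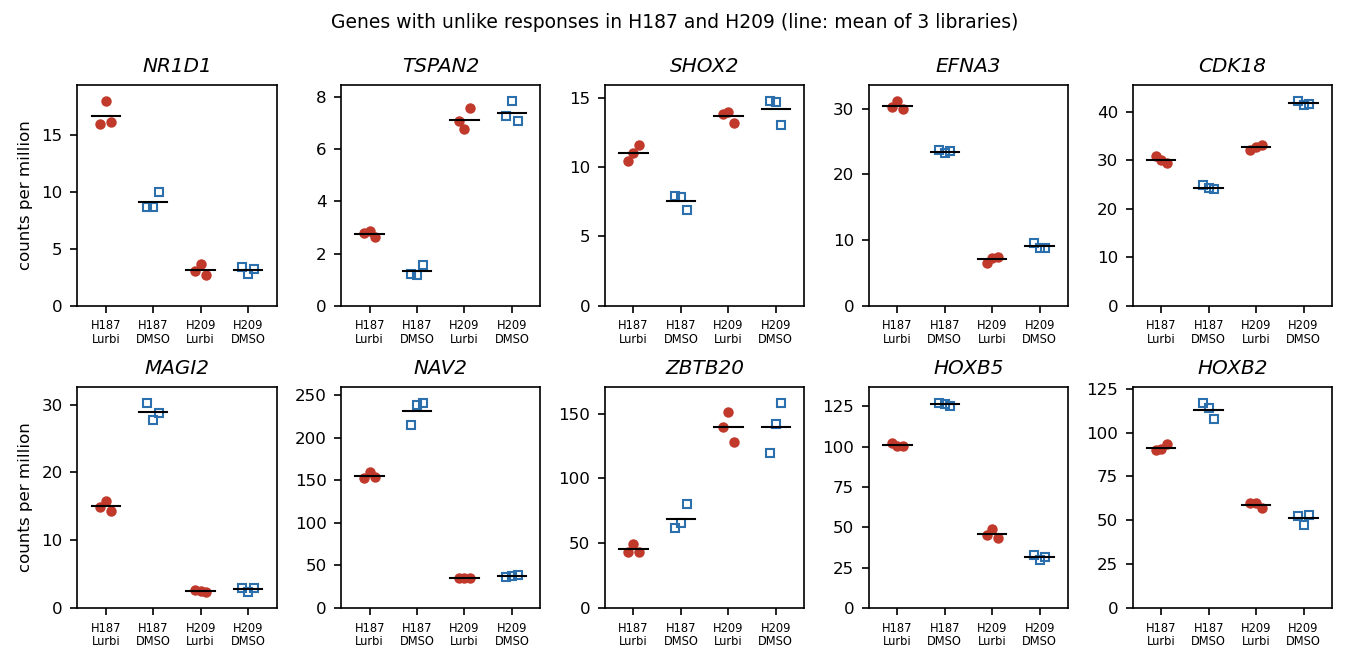
CPM in each library of H187 and H209 for 10 genes whose responses differ between the lines; filled red circles are lurbinectedin, open blue squares DMSO and bars the mean of 3 libraries. The H187 groups are separate in all 10 genes, which the choice required for NR1D1, TSPAN2, SHOX2, MAGI2, NAV2 and ZBTB20. The H209 groups overlap for NR1D1, TSPAN2, SHOX2, MAGI2 and ZBTB20, differ by little for NAV2, and lie the other way round for EFNA3, CDK18, HOXB5 and HOXB2.

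Opposite calls in the 2 lines were rare: 25 genes were higher in H187 and lower in H209, and 51 were lower in H187 and higher in H209. The difference was called for all 76, which opposite calls from the same libraries already made likely. EFNA3, an ephrin ligand, had 30.2, 31.2 and 29.9 CPM in H187 with lurbinectedin, against 23.6, 23.2 and 23.6 CPM with DMSO, and 6.55, 7.25 and 7.43 CPM in H209 with lurbinectedin, against 9.54, 8.77 and 8.81 CPM with DMSO. No library of one group reached into the other in either line, and the log2 fold changes were 0.38 ± 0.05 and -0.35, a difference of 0.72 ± 0.10 (edgeR's adjusted p = 5.9e-06). CDK18, a PCTAIRE kinase (0.30 in H187, -0.36 in H209), and ZNF850, a zinc finger gene (0.26 and -0.23), kept their H187 calls without any 1 library. HOXD10 (0.45), RASSF3 (0.22), MAP2K6 (-0.45), MDFIC (-0.53) and KCNK12 (-0.24) lost their H187 calls without any of 3, 3, 4, 4 and 4 libraries (edgeR's adjusted p of up to 0.11, 0.074, 0.087, 0.18 and 0.25), and MDFIC and KCNK12 with DESeq2 (0.071 and 0.064). The H187 groups of KCNK12 also overlapped.

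The HOXB cluster of chromosome 17 supplied several of the genes with opposite signs; its genes pattern the trunk and hindbrain in embryos. HOXB5 (chr17:48591257-48593741) had 102, 100 and 100 CPM in H187 with lurbinectedin, against 127, 126 and 125 CPM with DMSO, and 45.5, 48.8 and 43.0 CPM in H209 with lurbinectedin, against 32.7, 29.6 and 31.8 CPM with DMSO. The fall in H187 (-0.32 ± 0.04) and the rise in H209 (0.55) each exceeded the spread of their libraries, and the difference was -0.87 ± 0.06 (edgeR's adjusted p = 9e-12). HOXB2 moved in the same way (-0.31 ± 0.05 in H187 and 0.21 in H209). HOXB4 (-0.24) and HOXB6 (-0.16) did so too, but lost their H187 calls without DMSO library 2, and HOXB4 also without lurbinectedin library 3 and HOXB6 without lurbinectedin library 1 (edgeR's adjusted p of up to 0.13 and 0.054). HOXB8 (-0.24) lost its H187 call without any of 4 libraries (edgeR's adjusted p of up to 0.12), so without DMSO library 2 the calls of HOXB4, HOXB6 and HOXB8 were all lost. Of the 9 measured HOXB genes 5 were called lower in H187 and 1 higher, with a median of -0.16, whereas 5 of the 8 in both tables were called higher in H209, with a median of 0.22. The exception, HOXB9, rose in both lines, by 0.31 in H187 and 2.10 in H209. Genes of the other clusters behaved otherwise in H187, with 6 of 26 HOXA, HOXC and HOXD genes called higher, none lower and a median of 0.21. Of these 6, HOXA9 and HOXD10 lost their calls without any of 4 and any of 3 libraries (edgeR's adjusted p of up to 0.12 and 0.11). In H209, 3 of the 19 in both tables were called higher and 3 lower, with a median of 0.02. The difference was called higher in H187 for 2 and lower for 1. The HOXB cluster was examined after its values were seen, its neighbouring genes overlap antisense transcripts, and they are not independent of each other.

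Other clock genes were looked up after NR1D1 was seen. PER1 (0.27 ± 0.04), PER2 (0.21 ± 0.05) and PER3 (0.26 ± 0.04), the repressor arm, and DBP, an output factor (0.26 ± 0.06), rose in H187 and kept their calls without any 1 library. HLF (0.61) lost its call without DMSO library 1, and NFIL3 (0.20) without lurbinectedin library 1 or 3 (edgeR's adjusted p of up to 0.059 and 0.071). NR1D2, the paralog of NR1D1, had 188, 198 and 195 CPM with lurbinectedin and 188, 192 and 203 CPM with DMSO, with edgeR's adjusted p = 0.97, and ARNTL, CRY1, CLOCK, TEF and CIART were not called. In H209 PER2 rose by 0.76 (difference -0.56 ± 0.07), NFIL3 by 0.73 (difference -0.53 ± 0.09), PER1 by 0.47 (difference -0.20 ± 0.07) and NR1D2 by 0.30 (difference -0.30 ± 0.06), each more than in H187. The difference for PER1 lost its call without any of 10 of the 12 libraries (edgeR's adjusted p of up to 0.13).

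Among the lists, stress genes held many of the called differences between the lines. Over all genes tested for a difference, the H187 change was called higher for 4.42% and lower for 5.93%. The difference was called lower in H187 for 14 of 20 ATF4 axis genes and higher for 1, with medians of 0.48 in H187 and 1.09 in H209. CEBPB, a partner of ATF4, had a log2 fold change of 0.53 ± 0.09 in H187 and 1.96 in H209, and ATF4 itself was called higher in H209 alone (0.56, difference -0.55 ± 0.07). For 12 of 19 cytosolic tRNA synthetases, 8 of 14 amino acid transporters and 13 of 28 immediate early and MAPK feedback genes the H187 change was also lower, and it was higher for 1, 0 and 0 of them. The snoRNA host genes were split in the same way, with 10 of 24 lower in H187 and 1 higher, and medians of 0.00 and 0.37: SNHG1 was at 0.36 and 1.05, and GAS5 at 0.04 and 0.43. Linker and core histone genes had 12 of 28 lower in H187 and none higher (medians 0.00 and 0.13). In the other direction, the H187 change was higher for 5 of 18 nucleic acid sensing genes, and none was lower. OAS3 was at 0.79 in H187 and 0.36 in H209 (difference 0.42 ± 0.11), IFIT5 at 0.38 and 0.00, and EIF2AK2 at 0.18 and 0.00, and all 3 differences were called (edgeR's adjusted p of 0.011, 0.010 and 0.029). The H187 change was also higher for 10 of 35 axon guidance genes, 8 of 31 kinesin and spindle genes, 6 of 24 cholesterol genes and 5 of 30 proteasome subunits, and lower for 2, 1, 0 and 0. As lists these did not rise in H187. The medians in H187 and H209 were -0.17 and -0.23 for spindle genes, 0.00 and -0.08 for cholesterol genes and -0.08 and -0.15 for proteasome subunits. For axon guidance they were -0.10 over 42 genes in H187 and -0.12 over 35 in H209. For licensing genes the difference was called higher for 1 and lower for 1 of 28, and for replisome genes higher for 0 and lower for 2 of 34, with medians of 0.24 and 0.23 in H187, against 0.27 and 0.27 in H209. GINS4 (0.74 in H187, 0.39 in H209) and CCNE1 (0.55 and 0.20) were among the S phase genes that rose more in H187, both with the difference called (edgeR's adjusted p of 0.0015 and 0.010). Others rose less in H187: EXO1 was at 0.58 in H187 and 0.91 in H209 (difference -0.34 ± 0.05) and DTL at 0.63 and 0.87 (-0.25 ± 0.05). Among E2F and G1/S cyclin genes the difference was called higher in H187 for 2 and lower for 5 of 22.

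A further 981 genes were tested in H187 and not tabulated for H209, so no difference could be tested for them. Of these 45 (4.59%) were called higher and 140 (14.3%) lower in H187. The 140 had a median span of 238 kb, and 30 of them fell at least 2-fold. They include KCNQ5, a potassium channel spanning 577 kb, with 0.418, 0.406 and 0.319 CPM with lurbinectedin, against 1.27, 1.88 and 1.49 CPM with DMSO (-2.01 ± 0.28). Its groups of libraries did not overlap, but with a minimum count of 10 it entered the test through its higher DMSO libraries. Few reads lie behind its treated values, so the size of its fall is uncertain.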

How the data were processed

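The data are total RNA sequencing of H187 and H209 cells. Libraries were made from 100 ng of total RNA with the Illumina Stranded Total RNA Prep with Ribo-Zero Plus, per the labels' protocols. The submitters' processing notes name STAR 2.7.10a, featureCounts, Subread 2.0.3, edgeR 4.2.0 and hg38, and the strand setting of the counting is not given in the sources used here. Raw read counts per gene were deposited by the authors for each library, beside their own log2 fold changes, log2 CPM values and p-values. The authors' deposited false discovery rates below 0.05 call 1790 genes higher and 1756 lower in H187.

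From the counts, genes were filtered with filterByExpr (minimum count 10, total 15), scaled by TMM and tested with edgeR 4.0.16 (limma 3.58.1, R 4.3.3) by the quasi-likelihood test, each line by itself. The difference between lines was the interaction term over the 12 libraries of both. P-values were adjusted by Benjamini-Hochberg over all genes tested and called below 0.05. The CPM values printed here are TMM scaled, not per length, and compare libraries and not genes. Fold changes are lurbinectedin over DMSO, with SE from the fit. The fits were tested on simulated data. Tables and figures were made with Python 3.11.15 and pandas 2.3.3. Classes and promoter windows are from RefSeq: 13249 genes matched by symbol, 557 by synonym and 175 by gene ID, and 42 did not match. GC content, known for 97.0% of the genes tested, is from GENCODE 29 transcripts.

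The members and the 68 gene lists were chosen with earlier results of these data known. Named were protein-coding genes at ranks 7 to 14 by size among those at least 2-fold changed, the 10 mid-size genes with the smallest p-values in each direction, the 8 largest noncoding changes, the 8 largest changes of H187 alone, the 5 largest opposite changes, the 6 called genes with the highest CPM in each direction, and list members. Most of these rules required no overlap between the groups and a minimum mean CPM. HOX, clock and SNHG14 locus genes, further noncoding genes and list members beyond the 3 with the smallest p-values were chosen after their values were seen. Alternatives were DESeq2 1.42.0, RLE scaling, a fit of all 24 libraries, a mean CPM of at least 1, a replicate block, leaving out each library and, added after the data were seen, a GC correction (lowess, span 0.3).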

Additional observations from a re-analysis of the deposited data

Results flagged for a closer look

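Each gene below was picked out because its response differed between H187 and H209 by the edgeR interaction test. Values are the H187 log2 fold change minus that of H209. Here H187 alone means not called in H209, and the other lines were not examined. For genes that rose in H187 alone the difference was 1.11 for TSPAN2, 0.87 for NR1D1, 0.60 for SHOX2, 0.55 for GCNT1, 0.55 for DNAJA4, 0.46 for C1orf216, 0.45 for ANXA5 and 0.44 for P3H4. For genes that fell in H187 alone it was -1.09 for MGAT4C, -0.99 for LINC00643, -0.84 for MAGI2, -0.73 for BMS1P4, -0.61 for ZBTB20, -0.58 for ELMO1, -0.50 for NAV2 and -0.46 for ARHGAP26. For genes called in opposite directions it was 0.78 for HOXD10, 0.72 for EFNA3, 0.65 for CDK18, 0.48 for ZNF850 and 0.47 for RASSF3 where H187 was the higher, and -2.92 for RNA45SN2, -0.87 for HOXB5, -0.79 for MDFIC, -0.77 for MAP2K6 and -0.71 for KCNK12 where it was the lower. RNA45SN2 is a multi-copy rRNA row, and its H187 groups overlap, as do those of KCNK12. GCNT1, DNAJA4, ANXA5, P3H4, LINC00643, BMS1P4 and KCNK12 lose the call of the difference without any of 5, 2, 1, 1, 9, 2 and 1 of the 12 libraries.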

How the results depend on the processing

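The H187 counts of 1708 higher and 1778 lower stayed within 1.5 times under every alternative that kept the threshold: 1412 and 1601 with DESeq2, 1661 and 1977 with the GC correction, 1157 to 1546 and 1245 to 1665 without 1 library each. A threshold of 0.5 on the absolute log2 fold change left 238 and 349. The replicate block gave 1418 and 1445. The 97 genes higher in H187 alone became 59 with the replicate block and 50 to 125 without 1 library each, and the 66 lower became 48 and 42 to 70. No result reversed.

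Same-numbered H187 libraries of the 2 groups did not deviate together (r = -0.095, -0.259 and -0.233 across genes), and no lurbinectedin library correlated best with the DMSO library of its own number. These correlations gave no sign of pairing by number. They cannot settle how the cultures were paired, so the lower counts with the replicate block stand as a limit. Few reads lie behind noncoding genes of about 1 CPM, and a missing call there does not show that levels were equal. Counting each named gene once per alternative, its H187 call status was kept 4231 times, lost 234 times and gained 13 times; for differences between lines these were 1836, 104 and 25. List counts moved by over 1.5 times in 266 of such comparisons and stayed within it in 1774.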
